A study of Mus musculus with 3 samples.

Results

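The mitochondrial ribosomal protein genes are the nuclear genes for the protein parts of the ribosome inside mitochondria. They were taken as every mouse gene with a symbol of the form Mrpl or Mrps and a number (with a, b or c where the symbol has one) that at least 1 probe set of the array named alone. This gave 76 of the 18193 genes measured, 47 of the large subunit (Mrpl) and 29 of the small subunit (Mrps), read by 156 probe sets. They were measured in NIH3T3 cells, a fibroblast line from embryos of NIH/Swiss mice, on 3 Affymetrix Mouse Genome 430 2.0 arrays of total RNA. One array held control cells with the genotype untransduced, one held cells carrying mtYAP (Yap S112A), and one held cells carrying wildtype Yap (YAP). All 3 cultures were kept in medium with 10% calf serum. mtYAP is the form of the transcriptional coactivator YAP in which an alanine takes the place of serine 112, a site that the Hippo pathway kinases phosphorylate to keep YAP out of the nucleus. Per the study's methods, the YAP genes came into the cells on a retrovirus with a puromycin resistance gene and carriers were selected with puromycin, and an empty-vector virus is described too, so the label untransduced does not say whether the control cells went through selection. A free-text note on the control array names a different experiment, in embryonic stem cells, so its identity rests on its title and genotype. The study places the arrays in its work on growth at confluence, but no density at harvest is stated for them.

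Mitochondrial ribosomes translate the few proteins that mitochondrial DNA encodes, all of them parts of the respiratory chain and the ATP synthase. Their rRNAs come from mitochondrial DNA, whereas every protein is made in the cytosol from a nuclear gene and imported. Some of these proteins have counterparts in bacterial ribosomes and others occur only in mitochondria.

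Each group had 1 array and so no replicate, which means that no difference below could be set against a replicate spread and no test was made. Values are log2 levels after RMA, the authors' background correction and normalization, so that a difference of 1 is 2-fold. Both YAP arrays are compared with the same control array. The median over all probe sets was 4.60 on the control, 4.57 on the mtYAP and 4.56 on the YAP array. Over all genes it was 4.91, 4.90 and 4.91, and 7129 genes reached a level of 6 on at least 1 array. All 9 fibroblast markers examined lay above 6 on every array, with Vim at 12.92, 12.76 and 13.09 on the control, mtYAP and YAP arrays, and the 14 markers of embryonic stem, epithelial, blood, endothelial and muscle cells lay under 6 on every array. All 9 fibroblast markers were lower on the mtYAP than on the control array, with a median difference of -0.78, and their part in the results below was not tested. In such bulk samples, fewer cells of a type and less RNA per cell cannot be told apart.

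The mitochondrial ribosomal protein genes stood above control as a group with mtYAP, by a small amount that most members shared. Their median difference, mtYAP minus control, was 0.30, or 1.23-fold, against 0.02 over all 18193 genes and -0.02 over the 7129 genes that reached a level of 6. Of the 76 members, 61 (80.3%) were higher on the mtYAP array and 15 were lower. Over all genes 51.8% were higher and 46.5% lower. Over the genes at a level of 6 or more 48.2% were higher. The quartiles of the members were 0.05 and 0.47. Their interquartile range of 0.43 was close to the 0.45 of all genes and under the 0.81 of the genes at a level of 6 or more, and their SD was 0.38, against 0.60 and 0.84.

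The group was marked by this common shift and not by many large differences. Above a difference of 0.5 there were 17 members (22.4%), close to the 20.6% of genes at a level of 6 or more, though 11.6% of all genes passed it. Below -0.5 there were 2 members, Mrps21 and Mrpl18, where the background was 11.5% of all genes and 20.6% of those at a level of 6 or more. Past 1 there were 2 members, Mrpl32 and Mrpl13 (background 3.77% of all genes and 7.66% of those at a level of 6 or more), and below -1 there was 1, Mrps21 (background 4.06% and 8.22%). Within 0.5 of control in either direction lay 57 members (75%), against 76.9% of all genes and 58.8% of those at a level of 6 or more.

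**Figure D1:**
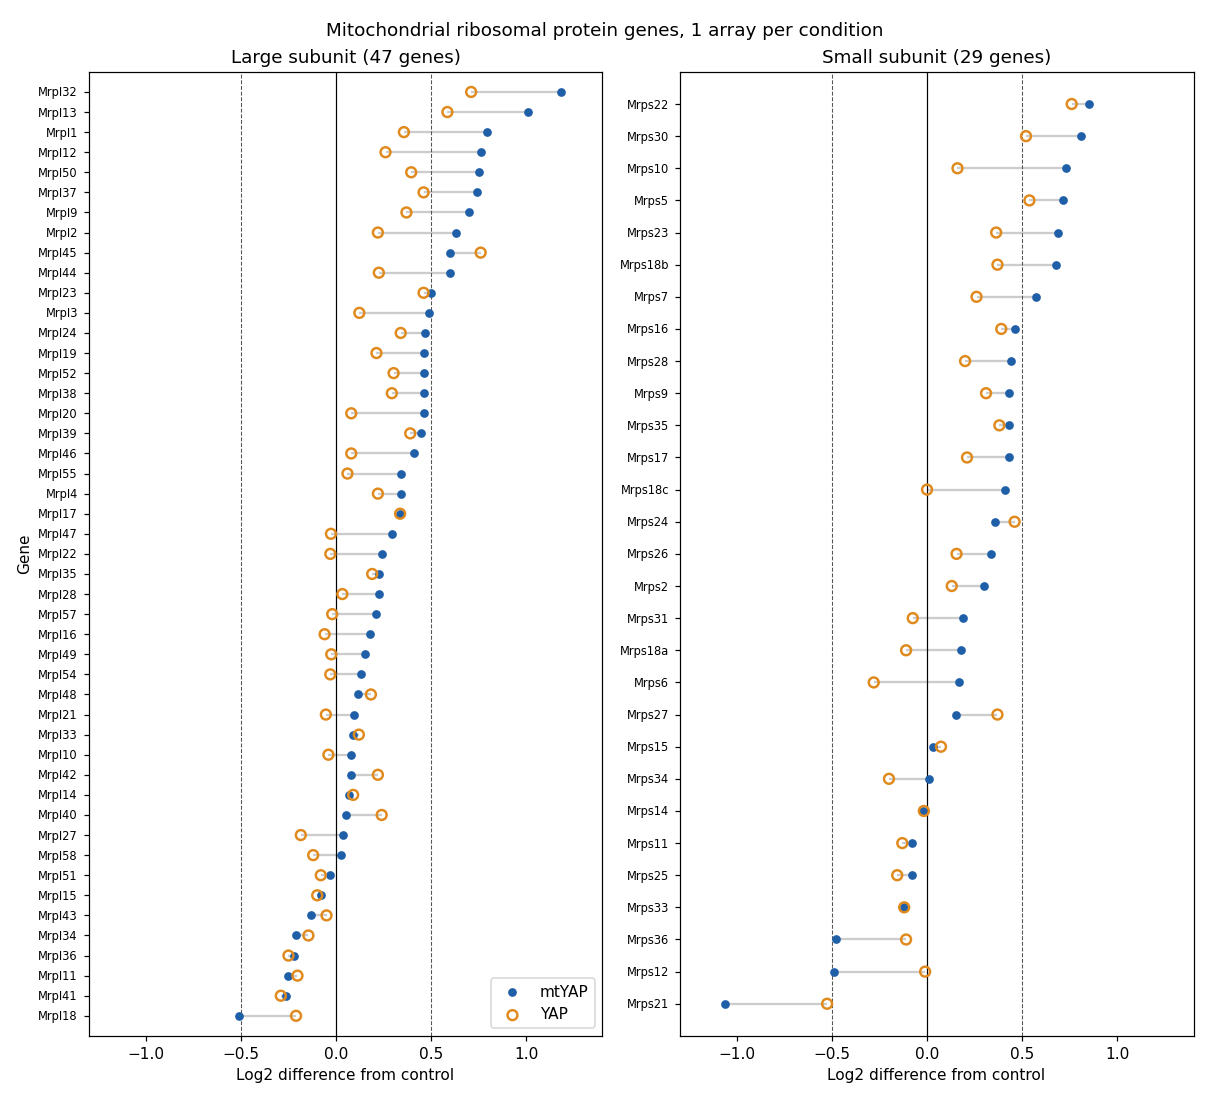
Difference from the control array in log2 units for each of the 76 mitochondrial ribosomal protein genes, large subunit in one panel and small subunit in the other, sorted by the mtYAP value, with filled points for mtYAP and open circles for YAP, 1 array each. Most points lie to the right of 0, with Mrpl32 at 1.18 and Mrps21 at -1.06 as the extremes for mtYAP.

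The members that stood furthest above control with mtYAP came from both subunits. Mrpl32, whose product is cut by a mitochondrial inner membrane protease before it joins the ribosome, read 8.62 on the control, 9.80 on the mtYAP and 9.33 on the YAP array. That is 1.18 (2.27-fold) above control with mtYAP and 0.71 with YAP, the highest mtYAP value of any member. Mrpl13, a large subunit protein with a bacterial counterpart, read 6.75, 7.76 and 7.34 on the same 3 arrays, a difference of 1.01 with mtYAP and 0.58 with YAP. All 4 of its probe sets were higher on both YAP arrays, with mtYAP differences of 0.57 to 1.35. Mrps22, a small subunit protein with no bacterial counterpart, read 7.55, 8.40 and 8.31, so that mtYAP (0.85) and YAP (0.76) lay near each other.

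Mrps30 carries a small subunit symbol but lies in the large subunit in structures of the mammalian mitoribosome. It read 8.13, 8.94 and 8.65 on the control, mtYAP and YAP arrays (differences 0.81 and 0.52). Mrpl1, part of the mobile L1 stalk beside the exit site for tRNA, read 4.82, 5.61 and 5.17 as a mean of 3 probe sets with unequal differences. Mrpl12, the stalk protein that recruits translation factors to the ribosome, read 8.66, 9.42 and 8.92 (0.76 and 0.26). Both Mrpl50 and Mrpl37 belong to the mitochondria-specific proteins of the large subunit. Mrpl50 read 6.96, 7.71 and 7.35, and Mrpl37 read 7.74, 8.48 and 8.20. All of these members had their highest level on the mtYAP array and their lowest on the control array.

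The same order held for Mrps10, a protein of the small subunit head, at 7.52, 8.25 and 7.68, and for Mrps5, which lines the entry of the mRNA channel, at 5.65, 6.37 and 6.19. The 5 probe sets of Mrps5 all lay above control with mtYAP, by 0.43 to 1.04. The other members above 0.5 were Mrpl9 (0.70), Mrps23 (0.69), Mrps18b (0.68), Mrpl2 (0.63), Mrpl45 (0.60), Mrpl44 (0.60) and Mrps7 (0.57). Mrpl2 sits by the peptidyl transferase centre, where peptide bonds are made, and Mrps7 in the head of the small subunit. Mrpl45 is a protein at the mouth of the exit tunnel that holds the ribosome to the inner membrane. Of the 17 members, Mrpl45 was the one with a higher level with YAP than with mtYAP.

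Promoter stretches are shown for 4 of the members above 0.5 and for Mrps21, the lowest member, because Mrpl12 and Mrps21 held the same letters of a motif. They come from RefSeq promoter windows, which run from 250 bases before to 50 after a gene's start, on build GRCm38.p6, and each is written 5′ to 3′ on the gene's strand. Capitals mark matches on either strand to the motif of NRF1, a factor of many nuclear genes for mitochondrial proteins (GCGC and TGCGC with any base between them), to AANATGGC, bound by YY1, to GGAATG, bound by the TEAD factors through which YAP acts, or to CACGTG, the E-box of MYC with MAX. The stretches are from chr13:14613095-14613287 (minus strand) for Mrpl32, chr11:97315541-97315707 (plus strand) for Mrpl45, chr11:120484536-120484585 (plus strand) for Mrpl12, chr17:46646070-46646115 (plus strand) for Mrpl2 and chr3:95871576-95871625 (minus strand) for Mrps21.
Mrpl32: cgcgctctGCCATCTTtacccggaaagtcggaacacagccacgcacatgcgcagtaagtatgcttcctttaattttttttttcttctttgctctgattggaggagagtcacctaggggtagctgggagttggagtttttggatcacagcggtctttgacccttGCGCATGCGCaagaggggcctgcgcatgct
Mrpl45: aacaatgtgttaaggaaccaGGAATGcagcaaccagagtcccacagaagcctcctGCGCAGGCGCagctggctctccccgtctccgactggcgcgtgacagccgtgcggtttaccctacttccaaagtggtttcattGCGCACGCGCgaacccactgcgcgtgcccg
Mrpl12: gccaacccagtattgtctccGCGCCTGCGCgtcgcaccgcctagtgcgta
Mrpl2: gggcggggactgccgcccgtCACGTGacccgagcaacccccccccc
Mrps21: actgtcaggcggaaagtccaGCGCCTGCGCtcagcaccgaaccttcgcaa
In Mrpl32 the first capitals match the YY1 motif and the next match the NRF1 motif. In Mrpl45 a TEAD match comes before a pair of NRF1 matches, in Mrpl2 the match is the E-box, and in Mrpl12 and Mrps21 it is the same NRF1 sequence. Members below control with mtYAP that are not shown held the E-box (Mrpl36, at -0.22) and the TEAD motif (Mrps11, at -0.08) too. Such a match is a string of letters, and binding there was not measured.

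Mrps21, a small subunit protein with a bacterial counterpart, went the other way, at 7.45 on the control, 6.39 on the mtYAP and 6.93 on the YAP array. Its difference of -1.06 with mtYAP was the lowest of any member, and both of its probe sets were lower, by -0.95 at levels over 8 and by -1.17 at levels under 6. Mrpl18, which lies in the central protuberance of the large subunit, read 8.77, 8.26 and 8.56 (-0.51 and -0.21). Mrps12, a protein of the decoding centre, read 8.06, 7.57 and 8.05, so that the YAP level lay at the control level. Mrps36, which is also known as a part of the 2-oxoglutarate dehydrogenase complex, read 8.54, 8.06 and 8.43 (-0.48 and -0.11). Mrpl41, a mitochondria-specific protein of the large subunit, read 6.91, 6.65 and 6.62. After it came Mrpl11 at -0.25, Mrpl36 at -0.22 and Mrpl34 at -0.21, and the other 7 members below control with mtYAP lay between -0.13 and -0.02.

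With wild-type YAP the group stood closer to control. The median difference, YAP minus control, was 0.13 (1.09-fold), against -0.003 over all genes and 0.03 over the genes at a level of 6 or more. It depended on the probe sets, and was 0.22 with each gene's brightest probe set and 0.07 without those that may read several transcripts or genes. There were 46 members above control, 29 below it and Mrps18c level with it (0.00). Over all genes 48.0% lay above control and 50.2% below it. Of the genes at a level of 6 or more, 53.5% lay above control. Above 0.5 there were 6 members (7.89%), Mrps22, Mrpl45, Mrpl32, Mrpl13, Mrps5 and Mrps30, against 6.38% of all genes and 11.7% of those at a level of 6 or more. Below -0.5 there was 1, Mrps21 (background 5.36% and 8.49%), and none passed 1 in either direction (background 1.36% above and 1.26% below).

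Mrpl45 and Mrps22 had the highest difference with YAP, 0.76 each. Mrpl45 was at 7.91 on the control, 8.51 on the mtYAP and 8.67 on the YAP array, so that YAP lay above mtYAP. At the low end, after Mrps21, Mrpl41 was at -0.29 and Mrps6 at -0.28. Mrps6, a small subunit protein with a bacterial counterpart, read 9.70, 9.87 and 9.42 and so lay above control with mtYAP and below it with YAP. Mrpl36, a large subunit protein with a bacterial counterpart, read 7.60, 7.38 and 7.35. Its YAP difference of -0.25 was the next lowest, followed by Mrpl18 at -0.21.

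The levels on the 3 arrays can also be put in order for each gene, with the control array shared by both comparisons. The order control, YAP, mtYAP from lowest to highest was held by 36 members (47.4%), while 25.7% of all genes and 31.2% of the genes at a level of 6 or more held it. The reverse order was held by 8 members (10.5%), against 22.7% of all genes and 31.8% of those at a level of 6 or more.

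Set directly against the YAP array, which does not involve the control, the mtYAP array was higher for 57 members and lower for 17. The median difference, mtYAP minus YAP, was 0.16, against 0.025 over all genes and -0.04 over those at a level of 6 or more, where 53.3% and 44.9% were higher. Over all genes 44.8% were lower. Most such differences were small. Mrps10 was the only member more than 0.5 higher on the mtYAP array, at 0.57, where 5.45% of all genes and 8.39% of those at a level of 6 or more were. Mrpl12 followed at 0.50 and Mrpl32 at 0.47. Mrps21 was the only one more than 0.5 lower, at -0.54, where 6.57% and 12.5% were, followed by Mrps12 at -0.48 and Mrps36 at -0.37.

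Large and small subunit genes were not separated by these arrays. With mtYAP the 47 large subunit genes had a median difference of 0.24, with 39 above control and 10 (21.3%) above 0.5. The 29 small subunit genes had a median of 0.335, with 22 above control and 7 (24.1%) above 0.5. With YAP the medians were 0.12 and 0.155, with 29 of 47 (61.7%) and 17 of 29 (58.6%) above control. Of the genes at a level of 6 or more, 48.2% lay above control and 20.6% above 0.5 with mtYAP, and 53.5% above control with YAP. Over all genes these shares were 51.8%, 11.6% and 48.0%. Moving Mrps18a and Mrps30, which lie in the large subunit by structure, to that subunit left all 4 medians as they were, since one lies below and the other above them with mtYAP and with YAP. The large subunit median was thus 0.10 lower than that of the small subunit with mtYAP and 0.04 lower with YAP. This order did not hold in every setting. Without the probe sets that may read several transcripts or genes, the large subunit median was higher by 0.0025 with mtYAP and 0.05 with YAP. Among the 38 members that reached a level of 8 on any array, it was higher by 0.015 with mtYAP. Members could pass that limit through the mtYAP array alone, so the last value does not bear on the order. The small subunit held the wider range with mtYAP, from -1.06 to 0.85 (SD 0.43), and the large subunit ran from -0.51 to 1.18 (SD 0.35).

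Proteins inherited from the bacterial ribosome and those particular to mitochondria were alike in direction. The 47 members with a bacterial counterpart had medians of 0.34 with mtYAP and 0.12 with YAP, and the 29 mitochondria-specific members had 0.19 and 0.18. Above control with mtYAP were 38 (80.9%) and 23 (79.3%) of them, where 51.8% of all genes and 48.2% of those at a level of 6 or more were. The Mrps18 genes are 3 paralogs of a single bacterial protein, and their products take different places in the ribosome. Mrps18a read 8.95, 9.13 and 8.84 on the control, mtYAP and YAP arrays, Mrps18b read 8.36, 9.04 and 8.73, and Mrps18c read 9.09, 9.50 and 9.09. All 3 were higher with mtYAP, by 0.18, 0.68 and 0.41, whereas with YAP only Mrps18b stood above control, by 0.37.

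Values by place in the ribosome are given for a few proteins. Around the mouth of the exit tunnel, where the new protein leaves, the mtYAP differences were 0.50 for Mrpl23, 0.47 for Mrpl24, 0.34 for Mrpl17, 0.29 for Mrpl47 and 0.24 for Mrpl22, with Mrpl45 at 0.60. At the stalk that meets the translation factors, Mrpl12 was at 0.76, Mrpl10 at 0.08 and Mrpl11 at -0.25. These proteins were picked after their values were seen, and 80.3% of all members lay above control. In the central protuberance, Mrpl38 was at 0.46, Mrpl46 at 0.41, Mrpl48 at 0.12 and Mrpl40 at 0.05, with Mrpl18 at -0.51. Mrpl58, a peptidyl-tRNA hydrolase built into the ribosome, was at 0.02 with mtYAP and -0.12 with YAP as a mean of 2 probe sets. Its brighter probe set read 8.84, 9.03 and 9.06 on the control, mtYAP and YAP arrays (0.19 and 0.22). The dim one read 4.17, 4.03 and 3.71 (-0.14 and -0.46).

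The shift was seen in the probe sets with a readable level, taken as the highest over the 3 arrays. A probe set could thus reach a level through the array where it was high. Of the 156 probe sets, 86 reached a level of 8, and 73 of these (84.9%) were above control with mtYAP, with a median of 0.36, and 66 (76.7%) with YAP, with a median of 0.23. Of all genes whose mean reached 8, 50.2% lay above control with mtYAP and 55.1% with YAP. No share over all probe sets was taken. Another 26 member probe sets lay between 6 and 8 at their highest, with medians of 0.42 and 0.15. The remaining 44, under 6 on all arrays, had medians of -0.01 and -0.12, with 19 and 12 above control. A gene's mean over its probe sets therefore mixes readings of unequal size. When each gene was read by its brightest probe set alone, the medians were 0.38 with mtYAP and 0.22 with YAP (0.02 and 0.00 over all genes). Then 63 and 58 members lay above control, where 51.6% and 48.2% of all genes did, and 25 and 10 lay above 0.5, where 13.7% and 8.16% did. Above 1 lay 3 members with mtYAP (Mrpl1, Mrps10 and Mrpl32) and 1 with YAP (Mrpl1), where 4.84% and 1.81% of all genes did. The brightest probe set is the one with the highest mean over the 3 arrays. For Mrpl1 it read 5.80 on the control array, where another read 6.04 and was 0.39 above control with mtYAP and 0.01 with YAP. The shares over all genes include many dim genes, and the share over genes at a level of 6 or more is not given for this reading. By the means over probe sets, 20.6% of such genes lay above 0.5 with mtYAP and 11.7% with YAP.

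**Figure D2:**
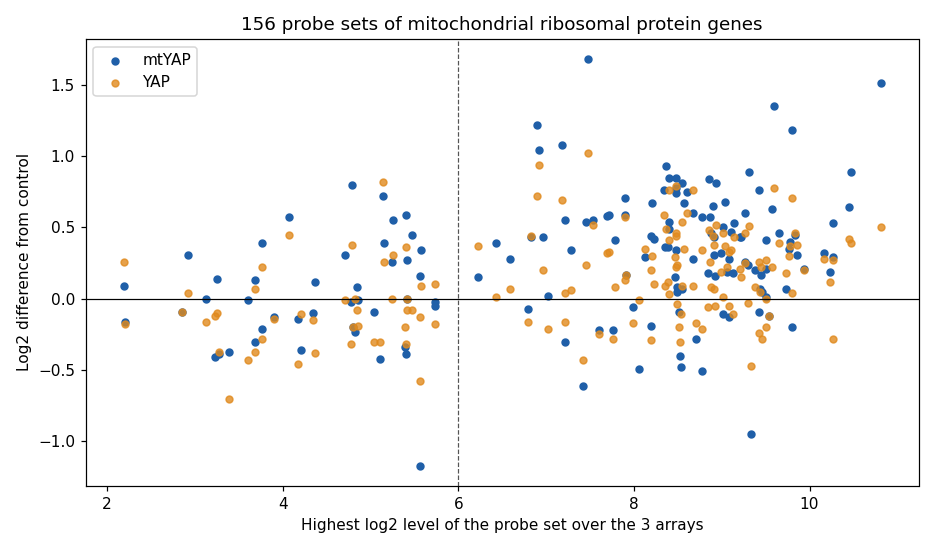
Difference from control in log2 units against the highest log2 level over the 3 arrays for the 156 probe sets that name a single mitochondrial ribosomal protein gene, blue for mtYAP and orange for YAP, with a dashed line at a level of 6. Of the 86 probe sets at 8 or more, 73 lie above 0 with mtYAP and 66 with YAP. Those under 6 scatter around 0 with mtYAP and lie mostly below 0 with YAP (12 of 44 above). Of all genes at a level of 8 or more, 50.2% and 55.1% lay above 0.

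Several members had probe sets that disagreed. In 19 of the 42 members with more than 1 probe set, the mtYAP differences had opposite signs, and in 3 they spread over more than 1. For Mrps10, a probe set at 9.30 on the control array read 10.81 with mtYAP and 9.80 with YAP (1.51 and 0.50), while another at 5.73 read 5.68 and 5.55. For Mrpl1, a probe set read 5.80, 7.48 and 6.82 (1.68 and 1.02), while the others were 0.39 and 0.31 above control with mtYAP. For Mrpl19, a large subunit protein with a bacterial counterpart, the pair of probe sets at control levels over 7 were 0.93 and 0.81 above control with mtYAP, and those at lower levels were at 0.27 and -0.16. In Mrps10 and Mrpl19, the brighter probe sets held the higher differences. Which transcript form each probe set reads was not examined.

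The 6 members whose mean over probe sets stayed under a level of 6 on all arrays were Mrpl1, Mrpl42, Mrpl47, Mrps11, Mrps25 and Mrps31. Mrpl42 read 5.74, 5.82 and 5.96 on the control, mtYAP and YAP arrays, and Mrpl47 read 5.05, 5.35 and 5.03. Mrps11 read 5.16, 5.08 and 5.03, Mrps25 read 5.97, 5.89 and 5.82, and Mrps31 read 5.54, 5.73 and 5.46. Leaving all 6 out gave a median of 0.34 for mtYAP. These means are low because dim probe sets enter them. Each of the 6 had a probe set above 7 on at least 1 array, for Mrpl1 on the mtYAP array only. The brightest probe set of Mrpl47 read 8.42, 9.31 and 8.93 (0.89 and 0.51) and that of Mrps31 read 7.31, 7.90 and 7.44 (0.59 and 0.13). Those of Mrpl42 (0.07), Mrps25 (0.17) and Mrps11 (-0.30) lay within 0.5 of control with mtYAP. Mrpl30 and Mrpl53 are not among the 76, because their probe sets name another gene too.

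The genes that build, serve and supply the mitochondrial ribosome differed in degree. Of 4 further ribosome proteins with other symbols, Chchd1 stood at 8.90, 9.81 and 9.30 (0.91 and 0.40) and Ptcd3, which handles mRNA at the entry channel, at 0.37 and 0.22. Dap3, a GTP-binding protein of the small subunit head, was at -0.12 and 0.08, and Gadd45gip1 of the large subunit was at -0.50 and -0.09. For ribosome assembly and rRNA modification, 26 genes had medians of 0.28 with mtYAP and 0.18 with YAP, with 18 (69.2%) above control on each. Above 0.5 lay 8 (30.8%) and 3 (11.5%) of the 26 genes. Of all genes at a level of 6 or more, 48.2% and 53.5% lay above control, and 20.6% and 11.7% above 0.5. The share above 0.5 with YAP was thus at the background, in this list of 26. Among them C1qbp, a matrix protein that binds RNA, was at 1.06 and 0.70, and Tfb1m, which methylates the small subunit rRNA, at 0.92 and 0.82. Mrm3, which methylates the large subunit rRNA, was at 0.69 with mtYAP and level with control with YAP, and Rcc1l was at 0.83 and 0.11. The median of this list with mtYAP lay near that of the ribosomal proteins themselves.

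For the upkeep and transcription of mitochondrial DNA, 18 genes had medians of 0.27 and 0.22, with 15 (83.3%) above control on each array. Of all genes at a level of 6 or more, 48.2% lay above control with mtYAP and 53.5% with YAP. Pnpt1, which degrades and imports RNA, was at 1.07 with mtYAP and 0.49 with YAP. Trmt10c, a subunit of mitochondrial RNase P, was at 0.91 and 0.24, Tfam, which packages the DNA and starts its transcription, at 0.83 and 0.36, and Elac2, which trims tRNA ends, at 0.77 and 0.39. Translation factors differed less, with medians of 0.18 and 0.06 over 12 genes and none above 0.5. Gfm2, which takes the ribosome apart after translation, read 5.36, 5.80 and 5.47, and the release factor Mtrf1l was at 0.29 and 0.12. Rmnd1, an inner membrane protein needed for mitochondrial translation, was at -0.66 and -0.28.

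With mtYAP the cytosolic ribosomal protein genes had a smaller median difference than the mitochondrial ones and the respiratory chain genes one below 0. The 49 cytosolic ribosomal protein genes that a probe set named alone had medians of 0.17 with mtYAP and 0.16 with YAP, with 36 and 37 above control. With YAP their median was thus above the 0.13 of the mitochondrial ribosomal protein genes. Their control levels had a median of 11.57 and reached 13.65, near the highest of any gene (13.96), where that of the mitochondrial genes was 7.55. Whether differences are narrowed at such high levels was not tested. The 81 respiratory chain and ATP synthase genes, the nuclear partners of the proteins that mitochondrial ribosomes make, had medians of -0.11 and -0.08, with 50 and 54 below control. Of these 81, 3 (3.7%) lay above 0.5 with mtYAP and 11 below -0.5. Of the 76 mitochondrial ribosomal protein genes, 17 (22.4%) lay above 0.5 and 2 below -0.5. The background above 0.5 was 11.6% of all genes and 20.6% of those at a level of 6 or more. Below -0.5 it was 11.5% and 20.6%. Above control lay 51.8% of all genes with mtYAP and 48.0% with YAP, and below it 46.5% and 50.2%. Uqcrh, of complex III, was at -1.18 and -0.40, and Ndufb3, of complex I, at -0.97 and -0.43. Cox6a2 went the other way, at 1.015 and 1.11, with levels under 6 on all arrays. These differences between lists were not tested.

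**Figure D3:**
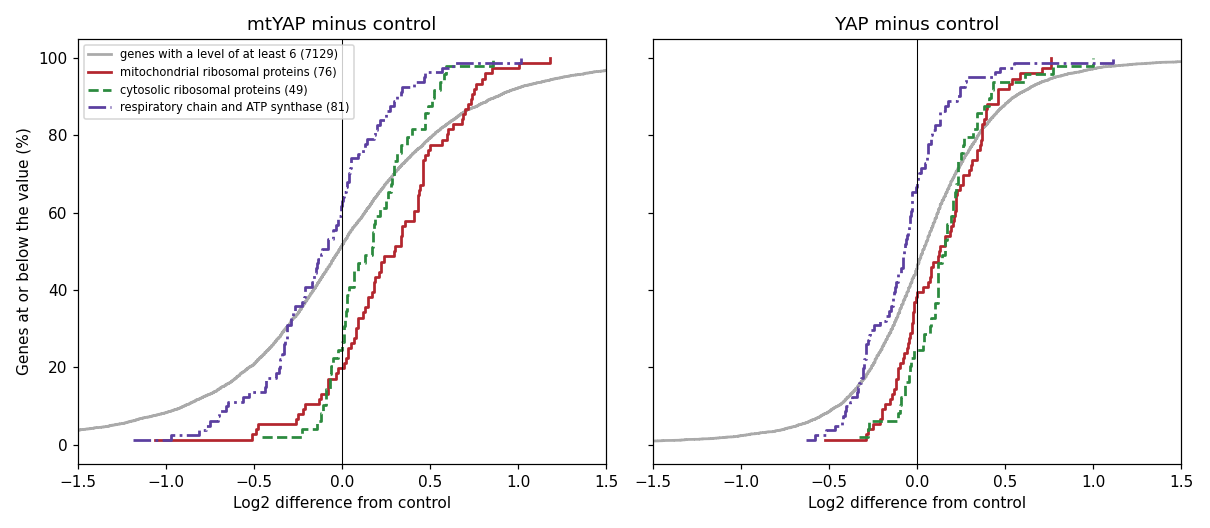
Cumulative share of genes against the difference from control in log2 units, for the mitochondrial ribosomal protein genes, cytosolic ribosomal proteins, the respiratory chain with ATP synthase, and the 7129 genes at a level of 6 or more, mtYAP and YAP in separate panels. The mitochondrial ribosomal curve crosses the middle further to the right than the curve of the 7129 genes (medians 0.30 and -0.02 with mtYAP) and is steeper, and the respiratory chain curve crosses it further to the left.

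Among 9 regulators of nuclear genes for mitochondrial proteins, those that differed most went in both directions. Myc, whose product drives ribosome genes among many others, read 7.75 on the control, 10.71 on the mtYAP and 9.66 on the YAP array. Ppargc1a, a coactivator of mitochondrial biogenesis, read 8.54, 6.28 and 6.10 and was thus lower by over 2 on both. Its relative Pprc1 was at 0.67 and 0.60, and Gabpb1, a subunit of the ETS factor GABP, at 0.92 and 0.58.

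Promoter windows were at hand for 67 of the 76 members, and motif matches were counted per gene on both strands. CCGGAAG, bound by ETS factors such as GABP, was held by 25 members (37.3%), against 9.93% of all genes with a window and 22.6% of those at a level of 6 or more. AANATGGC was held by 21 (31.3%, against 6.96% and 11.3%), and the NRF1 motif by 12 (17.9%, against 5.19% and 13.1%). CACGTG, in 5 members (7.46%, against 8.09% and 12.9%), and GGAATG, in 8 (11.9%, against 16.6% and 13.7%), were no more frequent among members than elsewhere. The median mtYAP difference was 0.15 for members with CCGGAAG and 0.35 for those without, and 0.44 and 0.19 for the NRF1 motif. For AANATGGC it was 0.15 with and 0.34 without, and for GGAATG it was 0.60 with and 0.21 without, the former over 8 genes. For CACGTG it was 0.46 with and 0.22 without, the former over 5 genes. The 8 members with GGAATG were Mrpl1, Mrpl22, Mrpl44, Mrpl45, Mrpl46, Mrpl50, Mrps11 and Mrps22. The letters in such a window say nothing of which factors act there.

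Many members share their start region with another gene on the opposite strand. Of the 67 members with a window, 25 (37.3%) had such a head-to-head neighbour within 1000 bases, compared with 12.2% of all genes with a window and 21.0% of those at a level of 6 or more. For the 23 whose neighbour was measured and not itself a member, the neighbours had a median mtYAP difference of -0.03, with 11 above control, and the members 0.21, with 18 above control. With YAP the medians were 0.03 and 0.06, with 12 above control in each. Mrpl32 and Psma2, a proteasome subunit that starts 205 bases away, were both higher with mtYAP, at 1.18 and 0.64. Mrps12 and Sars2, the mitochondrial seryl-tRNA synthetase, were both lower, at -0.49 and -0.54.

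Other pairs went apart. Mrpl18 was at -0.51 and Tcp1, a subunit of the cytosolic chaperonin, at 0.58, with starts 238 bases apart. Mrps18b was at 0.68 and Ppp1r10, a regulator of protein phosphatase 1, at -0.58. Mrpl57 was at 0.21 and Ska3, a protein of the spindle and kinetochore, at 1.01. Mrpl46 and Mrps11, both members, start 42 bases apart, and were at 0.41 and -0.08. Of the 23 neighbours, 14, Ska3 and Sars2 among them, lay under a level of 6 on all arrays, where differences between arrays say little. For the 9 neighbours at a level of 6 or more, a subset chosen after the values were seen, the median was 0.18 with mtYAP and 0.08 with YAP, and for their 9 members it was 0.15 and -0.03. In this subset the members did not stand above their neighbours.

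**Figure D4:**
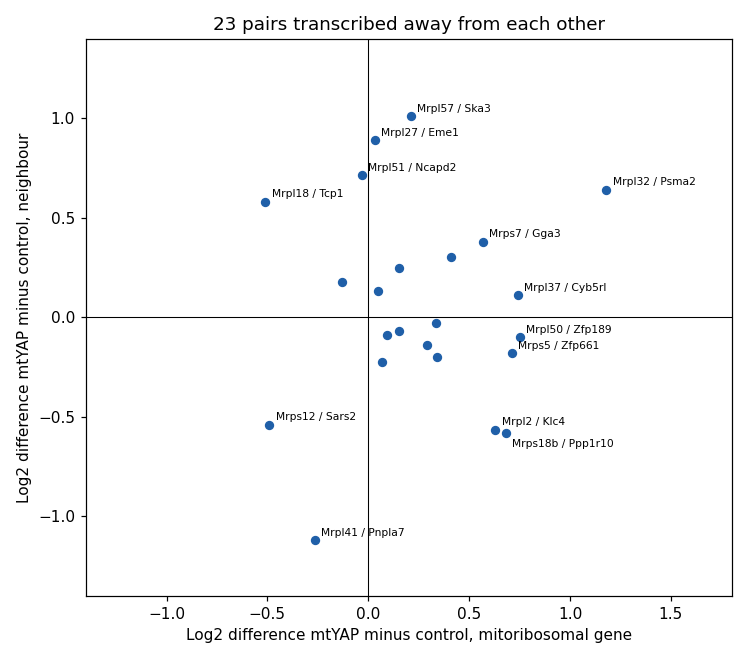
mtYAP minus control in log2 units for each mitochondrial ribosomal protein gene (horizontal axis) and for the measured gene that starts head to head with it within 1000 bases (vertical axis), 1 point per pair. Members lie mostly to the right of 0 (18 of 23), and their neighbours on both sides of 0 (11 of 23 above).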

How the data were processed

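Total RNA of 3 NIH3T3 cultures, 1 per group, was hybridised to 1 Affymetrix array each. The deposited log2 values were made by the authors with RMA (affy, versions not given in the sources used here), which corrects background, normalizes between arrays and sums probes. Of 45037 probe sets, 34945 named 1 gene in the platform annotation, 932 several and 9160 none. A gene's level was the mean of the probe sets naming it alone. All 76 members were matched to RefSeq by Entrez ID. Probe sets that name several genes were left out, which removed Mrpl30 and Mrpl53.

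Differences were taken between arrays, with no test, since each group had 1 array. Background shares were computed over all 18193 genes and over those at a level of 6 or more on at least 1 array. Members and gene lists were chosen with earlier results of these data known. Values on all arrays were given for the 10 members with the largest and the 5 with the smallest mtYAP difference, the 5 at each end for YAP, the 3 at each end between mtYAP and YAP, the Mrps18 paralogs, members under a level of 6, and members whose probe sets disagreed (of the 19 of opposite sign, those spread over more than 1). Up to 4 genes of each further list were chosen by mtYAP difference. Neighbour pairs and the proteins grouped by place in the ribosome were picked after their values were seen. Alternatives covered probe set choice, level, centring, a loess fit (span 0.3) and membership. Scripts (Python 3.11.15, numpy 2.4.6, pandas 2.3.3, statsmodels 0.14.6, matplotlib 3.10.9) were tested on simulated data. Array precision is limited by their number.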

Additional observations from a re-analysis of the deposited data

How the results depend on the processing

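No alternative turned the direction of the median differences over the mitochondrial ribosomal protein genes, which ran from 0.20 to 0.43 for mtYAP minus control, from 0.07 to 0.22 for YAP minus control and from 0.13 to 0.18 for mtYAP minus YAP. The difference between the subunit medians ran from -0.15 to 0.015 with mtYAP and from -0.12 to 0.05 with YAP, so no order of the subunits can be read. Reading each gene by its brightest probe set gave 10 members above 0.5 and 1 above 1 with YAP (8.16% and 1.81% of all genes read so). Without the probe sets that the array maker marks as able to read several transcripts or genes (62 members left) there was 1 above 1 with mtYAP, as there was after subtracting the median difference of all genes. Counted singly, 45 and 17 of the 156 probe sets lay above 0.5 with mtYAP and YAP, and 7 and 1 above 1. No share over all probe sets was taken, so these counts cannot be set against a background. Genes with several probe sets enter them more than once. Of the alternatives chosen after seeing the data, the 38 members at a level of 8 or more gave a median of 0.43 and a subunit difference of 0.015 with mtYAP. Of these, 11 lay above 0.5 and 1 above 1 (24.9% and 10.1% of all genes at that level). The level could be reached on any array, and members such as Mrps22 (7.55 on the control, 8.40 on the mtYAP array) passed only where they were high. The median of 0.43 therefore rests partly on the difference it measures. The 34 members with 1 probe set gave a median of 0.41, with 9 above 0.5 and 1 above 1 (10.7% and 3.66% of all genes with 1 probe set). The fall in some counts follows from fewer members entering. No paired analysis was possible because each group had 1 array. Low signal limits the 44 probe sets under a level of 6, and the absence of replicates limits every value.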

Other observations

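Several mitochondrial ribosomal protein genes share a probe set with another gene, and these readings stood outside the 76. The brighter of the probe sets shared by Mrpl30 and Gm6238 read 10.84 on the control, 11.08 on the mtYAP and 11.19 on the YAP array, 0.24 and 0.35 above control. The probe set shared by Mrpl53 and Ccdc142 read 9.43, 9.39 and 9.28. The one shared by Mrps34 and Nme3, a nucleoside diphosphate kinase gene, read 7.39, 5.53 and 6.30, a difference of -1.86 with mtYAP and -1.09 with YAP. Mrps34's own probe set read 9.50, 9.51 and 9.30, so the shared reading did not follow it. Which of the genes each shared probe set reads was not tested.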
